A study of Homo sapiens with 18 samples.

Results

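The levels of 10 genes of the YAP/TAZ pathway were followed in osteosarcoma cells in which the cohesin subunit RAD21 was silenced, Myc was activated, or both. The genes were taken by name: YAP1 and WWTR1, the 2 coactivators of the pathway, TEAD1, their DNA-binding partner, the target genes CTGF, CYR61, ANKRD1 and AXL, and AMOTL1, AMOTL2 and LATS2, which act on YAP and TAZ. All 10 were among the 23399 genes of the table, and all 10 were among the 14993 genes tested, those with a mean of at least 1 eRPKM. This unit counts reads on exons per kilobase of exon and scales them to a read total of the library, described below. The cells were U2OS-MycER, a human osteosarcoma line transduced with a retrovirus that encodes Myc fused to the hormone-binding part of the estrogen receptor, so that every group carried the MycER protein. The groups differed in the siRNA, in the drug and in the time. The siCtrl cells received an siRNA against Renilla luciferase and ethanol, siCtrl OHT cells the same siRNA and 400 nM 4-hydroxytamoxifen (OHT), which activates MycER, siRAD21 cells a pool of siRNAs against RAD21 and ethanol, and siRAD21 OHT cells that pool and OHT. The siRNA and the drug were given together, and RNA was taken at 24 and 48 h. Of the 18 libraries, 3 were from siCtrl and 3 from siCtrl OHT cells harvested at 48 h, and each of the other 6 groups had 2. The study's methods call its replicates biological, and the sources do not say how the cultures were separated, so the p-values measure the spread between these libraries.

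YAP1 and WWTR1, which encodes TAZ, are transcriptional coactivators that shuttle between cytoplasm and nucleus. In the nucleus they bind TEAD factors and switch on genes of growth, adhesion and the matrix, of which CTGF, CYR61 and ANKRD1 are the usual readouts. The Hippo kinases LATS1 and LATS2 phosphorylate YAP and TAZ and keep them out of the nucleus, and the angiomotins, among them AMOTL1 and AMOTL2, bind them in the cytoplasm. LATS2 and AMOTL2 are themselves targets, which closes a negative feedback. In osteosarcoma cells such as U2OS, as in other mesenchymal cells grown attached to plastic, the pathway is known to be active. These are facts about protein activity, whereas the data are RNA levels.

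The read total to which eRPKM was scaled lay between 9647501 and 12678599 per library, as recovered from the table. Reads on the exons of its genes made up 99.9 to 99.92% of that total, so it does not count all mapped reads. The 10 genes had between 204 and 5797 reads in a library. RAD21 fell from 70.7 ± 2.04 to 18.4 ± 0.366 eRPKM at 24 h (SD, n = 2 and 2) and from 93.1 ± 3.96 to 11.2 ± 0.105 at 48 h (SD, n = 3 and 2), which checks the siRNA labels. MYC, to which reads of the MycER transgene can count, had log2 fold changes with siRAD21 of -0.25 at 24 h (limma adjusted p = 0.0146) and 0.12 at 48 h (adjusted p = 0.109), and with OHT in siCtrl cells of -0.37 and -0.22 (adjusted p = 0.00129 and 0.00464), none called. It fell with OHT in siRAD21 cells by 0.57 at 24 h and 0.72 at 48 h, and in siRAD21 OHT against siCtrl cells by 0.82 and 0.60, all called. The 2 siRAD21 OHT libraries at 48 h differed by less than the sampling noise (chi-square per gene 0.982, against 1.04 to 3.93 in the other pairs), so they were counted as 1 sample and their mean is given with no SD, while the fit held both libraries. Each SE and p-value of a comparison with siRAD21 OHT cells at 48 h thus counts them as 2 samples, and may be too small. The pair at 1.04 was siRAD21 at 24 h, close to the sampling noise, and the next lowest, siCtrl OHT at 24 h, was at 1.41. The siRAD21 libraries at 24 h were kept as 2 samples. SDs, SEs and p-values that rest on siRAD21 cells at 24 h may therefore be too small as well. Duplicate removal sets an upper limit on eRPKM, 1 read per position and strand, which lay between 157.7 and 207.3 in these libraries. ANKRD1 reached 53.3% of it, AXL 51.0%, CTGF 48.3% and CYR61 35.6%, which compresses their fold changes, while WWTR1 never passed 7.13%. The osteoblast-lineage markers had a summed level of 204 to 296 eRPKM over the libraries, with 6 of 8 at a mean of at least 1 (VIM was at 105 to 129 and SPARC at 60.6 to 86.4, while COL1A2 was at most at 0.109). Their sum was lower with OHT, at 204 to 215 against 231 to 259 in siCtrl cells at 24 h, 212 to 240 against 249 to 296 in siCtrl cells at 48 h, 223 to 233 against 246 to 254 in siRAD21 cells at 24 h and 219 to 221 against 291 to 294 in siRAD21 cells at 48 h. Endothelial markers summed to 5.12 to 8.88, higher with OHT in both kinds of cell and at both times, for example 6.82 to 7.71 against 5.47 to 6.51 in siCtrl cells at 24 h. The part of these sums in the differences with OHT given below was not tested. Epithelial markers, with 5 of 6 at a mean of at least 1, summed to 46.5 to 48.7 in siCtrl, 38.7 to 40.9 in siCtrl OHT, 28.9 to 31.6 in siRAD21 and 20.1 to 21 in siRAD21 OHT cells at 48 h. This sum, in which CLDN4 was at 11.4 to 41.6, is in the same order as the levels of AXL and WWTR1 at 48 h given below. At 24 h it is not, since it was 47.1 to 47.7 in siRAD21 and 35.1 to 37.1 in siCtrl OHT cells, where AXL and WWTR1 were lower in siRAD21 cells. Its part in those results was not tested.

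The promoters show which of these genes carry the letters that TEAD factors recognise. The sequences are from RefSeq on GRCh38.p14, the 250 bases before the transcription start, read in the direction of the gene, and both strands were searched for GGAATG, the core of the TEAD motif, and CACGTG, the E-box to which Myc binds. GGAATG was found in 11.9% of 35116 promoters of this length and CACGTG in 6.34%. CTGF, ANKRD1 and YAP1 are shown, as the genes with most matches and as the only one with an E-box among those with an entry. Capitals mark the matches.
CTGF: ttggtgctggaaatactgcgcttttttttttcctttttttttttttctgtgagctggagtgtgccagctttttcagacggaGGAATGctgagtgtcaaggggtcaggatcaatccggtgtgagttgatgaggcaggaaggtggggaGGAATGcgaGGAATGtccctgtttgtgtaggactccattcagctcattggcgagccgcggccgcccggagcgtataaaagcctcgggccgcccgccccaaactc
ANKRD1: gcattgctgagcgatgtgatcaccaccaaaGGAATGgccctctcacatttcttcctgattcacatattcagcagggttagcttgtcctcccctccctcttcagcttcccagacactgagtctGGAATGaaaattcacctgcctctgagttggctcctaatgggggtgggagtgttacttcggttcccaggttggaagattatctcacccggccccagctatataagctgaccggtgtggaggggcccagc
YAP1: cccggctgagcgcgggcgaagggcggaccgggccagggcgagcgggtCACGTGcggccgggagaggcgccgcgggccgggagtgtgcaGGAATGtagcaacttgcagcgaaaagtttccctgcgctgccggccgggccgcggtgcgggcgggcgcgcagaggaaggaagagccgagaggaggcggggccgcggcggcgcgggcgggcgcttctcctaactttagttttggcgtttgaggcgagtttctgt
The CTGF sequence lies at chr6:131951373-131951622 on the minus strand and holds GGAATG 3 times, at -169, -104 and -95 from the start. That of ANKRD1, at chr10:90921088-90921337 on the minus strand, holds it at -220 and -128, and that of YAP1, at chr11:102110197-102110446 on the plus strand, has GGAATG at -162 and the E-box at -203. AMOTL2 and AXL had 1 match, each at the second of 2 annotated starts, at -69 and -212. None was found in these 250 bases of WWTR1, which also has 2 starts, AMOTL1 or LATS2. CYR61 and TEAD1 had no entry. A match is only a match of letters, and no binding was measured here.

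The first comparison, siRAD21 against siCtrl cells without OHT, asked how these RNAs differed with the siRNA pool against RAD21. No other siRNA against RAD21 was used in these libraries, so loss of RAD21 and effects of the pool on other genes cannot be told apart. At 24 h, YAP1 and AMOTL1 rose and WWTR1 fell. At 48 h TEAD1 had also risen and AXL had fallen, while CTGF and CYR61 were not called and had libraries that overlapped at 48 h. A gene was called changed when limma on log2(eRPKM + 0.5), with Benjamini-Hochberg adjustment over all genes tested, gave an adjusted p under 0.05 and a log2 fold change beyond 0.5 in either direction. By that rule 3 of the 10 genes were called at 24 h, where 8.43% of all genes tested were, and 5 of 10 at 48 h, where 23.7% were. The median log2 fold change of the 10 was 0.03 at 24 h and 0.26 at 48 h, beside 0.002 and -0.01 over all genes tested. As these are bulk samples, a change in the share of some cells and a change of RNA per cell cannot be told apart.

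The 2 coactivators moved in opposite directions. YAP1 (chr11:101981178-102104155 on GRCh37, plus strand) stood at 20.6 and 21.7 eRPKM in the siCtrl libraries at 24 h and at 31.5 in both siRAD21 libraries. By 48 h it stood at 24.1, 23.9 and 24.4 in siCtrl and at 35.4 and 34.1 in siRAD21 cells. The groups did not overlap at either time. The log2 fold change was 0.56 (SE 0.054, limma adjusted p = 5.9e-06) at 24 h and 0.52 (SE 0.050, adjusted p = 8.49e-07) at 48 h, a rise of 1.48-fold and 1.43-fold. The call at 48 h rested on 1 library, since the log2 fold change was 0.49 without siRAD21 replicate 1.

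WWTR1 (chr3:149235022-149454501, minus strand) was the least abundant of the 10. Its levels were 8.0 and 9.08 eRPKM in siCtrl and 4.8 and 5.02 in siRAD21 cells at 24 h, and 14.1, 13.0 and 13.2 against 5.88 and 5.25 at 48 h. All siRAD21 libraries lay below all siCtrl libraries, also across the 2 times. It fell by 0.74 on the log2 scale at 24 h (SE 0.109, limma adjusted p = 0.000193) and by 1.20 at 48 h (SE 0.099, adjusted p = 1.91e-07), 1.67-fold and 2.30-fold lower. These were the furthest from 0 of the 10 values at each time. WWTR1 shares 756 exon bases with the antisense gene WWTR1-AS1, and the libraries do not mark strand, so reads there cannot be told apart. WWTR1-AS1 had a mean of 3.04 eRPKM in siCtrl and 2.54 in siRAD21 cells at 48 h, a log2 fold change of -0.21 (limma adjusted p = 0.136). Exon bases are also shared with other genes in YAP1 (639 of 6311), AMOTL1 (496 of 10030), CTGF (278 of 2338, with LINC01013, which had at most 0.0532 eRPKM), AMOTL2 (187 of 6479) and AXL (67 of 5134).

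The balance between the coactivators therefore differed between the siRNAs. YAP1 divided by WWTR1, both per kilobase, was 2.49 ± 0.13 in siCtrl and 6.42 ± 0.195 in siRAD21 cells at 24 h (SD, n = 2 and 2). At 48 h it was 1.80 ± 0.0764 (n = 3) and 6.25 ± 0.338 (n = 2). With OHT it was 3.27 ± 0.00329 in siCtrl and 6.46 ± 0.359 in siRAD21 cells at 24 h, and 2.49 ± 0.376 and 6.95 at 48 h. The ratio was between 6.01 and 6.96 in all 8 siRAD21 libraries and between 1.71 and 3.27 in all 10 siCtrl libraries, with no test run on it.

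TEAD1, the DNA-binding partner (chr11:12695968-12966284, plus strand), was higher in siRAD21 cells, as YAP1 was. It was at 32.0 and 35.2 eRPKM in siCtrl and 42.3 and 43.0 in siRAD21 cells at 24 h, where the log2 fold change of 0.34 (SE 0.059, limma adjusted p = 0.000656) was too small for a call. At 48 h the siCtrl libraries held 32.2, 30.6 and 32.6 and the siRAD21 libraries 46.0 and 44.9. That was a rise of 0.51 (SE 0.054, adjusted p = 2.11e-06) and did not overlap with siCtrl. The call is close to the threshold, since it was lost with each library centred on its median and without siCtrl replicate 2 or siRAD21 replicate 1, with values under 0.5 and down to 0.48.

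Of CTGF, CYR61, ANKRD1 and AXL, taken as targets, AXL, a receptor tyrosine kinase (chr19:41725128-41767671, plus strand), was the only one called. Its level was 87.8 and 80.4 eRPKM in siCtrl and 69.8 in both siRAD21 libraries at 24 h, a log2 fold change of -0.27 (limma adjusted p = 0.000981) under the size needed for a call. By 48 h it was 79.7, 77.5 and 77.7 against 47.3 and 48.5. AXL fell by 0.70 (SE 0.044, adjusted p = 1.28e-08), and by 0.85 with the effect of duplicate removal undone. The fall at 48 h was larger than at 24 h by 0.44 on the log2 scale (adjusted p = 0.000353).

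The matricellular proteins CTGF and CYR61, both secreted, were not called at either time. CTGF (named CCN2 in current annotation, chr6:132269316-132272512, minus strand) was at 42.9 and 38.8 eRPKM in siCtrl and 41.4 and 38.2 in siRAD21 cells at 24 h, and at 86.0, 84.8 and 89.6 against 84.8 and 87.8 at 48 h. The libraries overlapped at both times, with log2 fold changes of -0.04 (SE 0.051, limma adjusted p = 0.633) and -0.01 (SE 0.047, adjusted p = 0.89). CYR61 (CCN1, chr1:86046444-86050272, plus strand) was at 57.2 and 52.4 in siCtrl and 50.7 and 47.4 in siRAD21 cells at 24 h, which did not overlap, and ranged from 53.2 to 65.9 over both groups, which overlapped, at 48 h. Its log2 fold changes were -0.16 (adjusted p = 0.184) and 0.01 (SE 0.076, adjusted p = 0.94). ANKRD1, a muscle ankyrin repeat protein found in nucleus and sarcomere (chr10:92671853-92680844, minus strand), was the most abundant of the 10 and was at 73.2 and 67.4 in siCtrl and 76.3 and 73.9 in siRAD21 cells at 24 h, with no overlap and a log2 fold change of 0.10 (adjusted p = 0.32). By 48 h it was at 84.3, 89.8 and 80.2 in siCtrl and 97.7 and 104.0 in siRAD21 cells, which did not overlap either. The log2 fold change of 0.25 (SE 0.060, adjusted p = 0.00258) was below the size needed, also at 0.38 with duplicate removal undone. CTGF and ANKRD1, whose promoters held most GGAATG matches above, were not among the genes called. Of the genes called at 48 h, YAP1 and AXL held a match, WWTR1 and AMOTL1 held none and TEAD1 had no entry. A relation between matches and calls was not tested.

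The genes that act on YAP and TAZ differed among themselves. AMOTL1 (chr11:94439597-94609913, plus strand), an angiomotin of cell junctions, was at 18.6 and 20.6 eRPKM in siCtrl and 29.9 and 30.5 in siRAD21 cells at 24 h, then at 22.8, 21.2 and 21.2 against 37.2 and 35.3 at 48 h. It rose by 0.61 (SE 0.067, limma adjusted p = 1.75e-05) and by 0.73 (SE 0.061, adjusted p = 2.45e-07), the highest values of the 10, though at 24 h within 1 SE of that of YAP1. Its relative AMOTL2 (chr3:134074189-134094321, minus strand) was at 42.8 and 42.4 against 49.4 and 48.4, and at 44.6, 45.2 and 46.9 against 58.1 and 61.0. These groups did not overlap either, but the log2 fold changes of 0.20 and 0.38 (adjusted p = 0.00575 and 3.1e-06) were too small for a call. LATS2, the kinase (chr13:21547175-21635725, minus strand), lay on opposite sides of siCtrl at the 2 times. At 24 h it was at 18.1 and 19.7 in siCtrl and 15.7 in both siRAD21 libraries (log2 fold change -0.26, adjusted p = 0.0337), and at 48 h at 24.6, 23.1 and 22 against 27.2 and 28.7 (0.26, adjusted p = 0.0088). Neither was called, whereas the difference between the 2 times was, as given below.

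**Figure D1:**
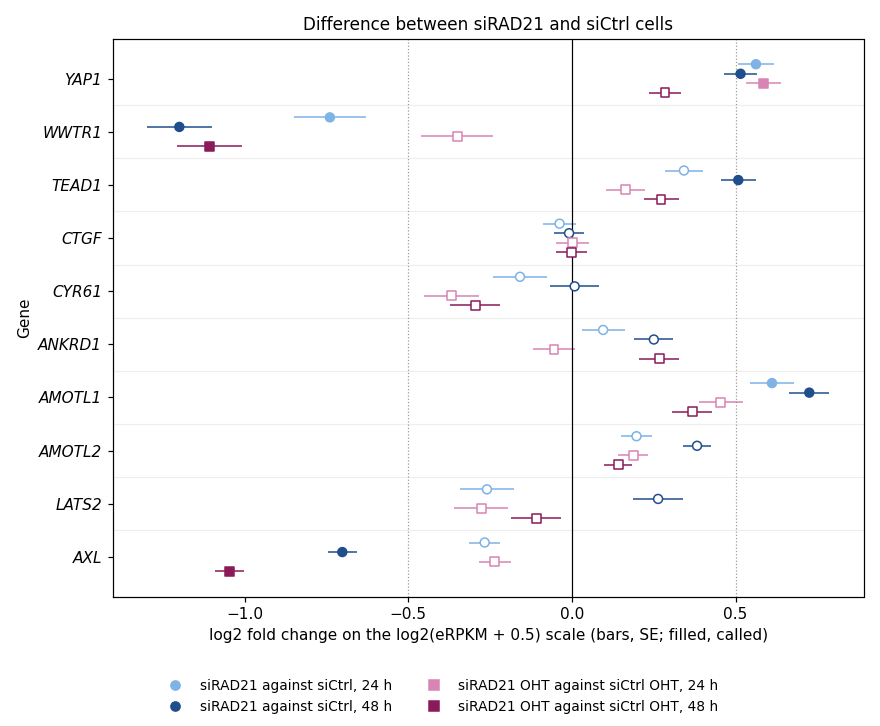
Difference between siRAD21 and siCtrl cells for each gene, as a log2 fold change on the log2(eRPKM + 0.5) scale (horizontal axis), without OHT (circles) and with OHT (squares) at 24 and 48 h. Bars are SE, dotted lines mark the size needed for a call, and filled symbols are called. WWTR1 at 48 h lies at -1.20 and -1.11, AXL at -0.70 and -1.05, and CTGF between -0.04 and 0.00.

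With OHT in both arms, the same siRNA comparison gave 1 called gene of 10 at 24 h, where 6.47% of all genes tested were called, and 2 of 10 at 48 h, where 16.2% were. YAP1 rose at 24 h, from 20.9 and 18.7 in siCtrl OHT to 30.4 and 29.4 eRPKM in siRAD21 OHT cells (log2 fold change 0.58, SE 0.054, limma adjusted p = 5.38e-06). By 48 h it was at 22, 23.1 and 21.2 against 27.1 and 26.9, with no overlap, and its log2 fold change of 0.28 (adjusted p = 0.000333) was no longer large enough. WWTR1 had a log2 fold change of -0.35 (adjusted p = 0.0348) at 24 h. At 48 h it fell by 1.11 (SE 0.099, adjusted p = 7.82e-07), from 10.4, 8.05 and 8.57 to 3.89 and 3.88. AXL fell at 48 h from 69.5, 69.7 and 66.0 to 33.9 and 31.8, by 1.05 on the log2 scale (SE 0.044, adjusted p = 6.78e-10), which is 2.07-fold lower. CYR61 was below siCtrl OHT in both siRAD21 OHT libraries at both times, at 38.4 and 41.5 against 50.8 and 52.6 at 24 h, with log2 fold changes of -0.37 and -0.30 (adjusted p = 0.00607 and 0.00544) that were not called. AMOTL1 was at 0.45 at 24 h and was called, at 0.51, without siRAD21 OHT replicate 2. CTGF again differed by 0.00 at both times.

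The second question was how these RNAs differed with OHT, which activates MycER, in cells that kept RAD21. No cells without MycER were given OHT, so effects of the drug itself and of active MycER cannot be told apart. CTGF fell at 24 h, and WWTR1 fell at 48 h. In siCtrl cells 1 of 10 genes was called at 24 h, against 8.78% of all genes tested, and 1 of 10 at 48 h, against 17.9%. The median log2 fold change of the 10 was -0.10 at 24 h and -0.13 at 48 h, beside -0.01 over all genes at both times. CTGF was at 26.8 and 25.8 eRPKM with OHT, below the 42.9 and 38.8 without it, a fall of 0.63 on the log2 scale (SE 0.051, limma adjusted p = 1.62e-06). At 48 h it was at 72.9, 74.0 and 72.6 with OHT, again below every library without it, but the log2 fold change of -0.25 (adjusted p = 0.000202) was not called, nor was the -0.33 obtained with duplicate removal undone. WWTR1 was at 6.39 and 5.71 with OHT at 24 h, a log2 fold change of -0.47 (adjusted p = 0.00592) just short of a call. It was called at 24 h when siCtrl replicate 1 or siCtrl OHT replicate 1 was left out, with values down to -0.55. At 48 h, at 10.4, 8.05 and 8.57 with OHT, it fell by 0.56 (SE 0.089, adjusted p = 0.000113), a call that was lost at -0.49 without siCtrl OHT replicate 2. Of the other genes, TEAD1 (-0.24) and AXL (-0.19) had an adjusted p under 0.05 at 48 h with small sizes, as did YAP1 at -0.13 and CYR61 at 0.17, while AMOTL1 differed by -0.02.

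The same drug comparison in siRAD21 cells gave 1 called gene of 10 at 24 h, against 11.9% of all genes tested, and 2 of 10 at 48 h, against 28.6%. CTGF was once more the gene that fell at 24 h, from 41.4 and 38.2 to 26.0 and 26.6 eRPKM, by 0.59 (SE 0.051, limma adjusted p = 1.93e-06). At 48 h, AXL fell from 47.3 and 48.5 to 33.9 and 31.8, by 0.54 (SE 0.048, adjusted p = 4.66e-07), and LATS2 from 27.2 and 28.7 to 19.9 and 19.3, by 0.50 (SE 0.083, adjusted p = 0.000141). Both calls rested on siRAD21 OHT replicate 2, without which the log2 fold changes were -0.49 and -0.48. The LATS2 call was also lost without siRAD21 replicate 2. Of the 10 genes, 8 had a log2 fold change with an adjusted p under 0.05 at 48 h, all of them negative, with TEAD1 and WWTR1 at -0.47, AMOTL1 at -0.38, YAP1 at -0.36, AMOTL2 at -0.31 and CTGF at -0.24. Over all genes tested, 9061 of 14993 had an adjusted p under 0.05, in either direction. TEAD1 was called at -0.51 without siRAD21 OHT replicate 2, and WWTR1 at -0.54 without siRAD21 replicate 2. The median of the 10 was -0.37, beside -0.02 over all genes tested.

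Whether OHT acted differently in the 2 kinds of cell was tested as the interaction of siRNA and drug, the log2 fold change of OHT in siRAD21 cells minus that in siCtrl cells. At 24 h none of the 10 was called, and 0.0% of all genes tested were. By an unadjusted p under 0.05 there were 2 of the 10 (WWTR1 at 0.39 and TEAD1 at -0.18) and 906 of all 14993, and limma-voom on the recovered reads called 19 of all genes. At 48 h none of the 10 reached the size for a call either, where 7.3% of all genes did. The p-values at 48 h count the 2 siRAD21 OHT libraries as 2 samples, and may be too small. The interaction had a limma adjusted p under 0.05 for 6 of the 10, beside 2587 of all 14993 genes tested. It was -0.37 for LATS2 (SE 0.108, adjusted p = 0.0293), -0.36 for AMOTL1 (SE 0.087, adjusted p = 0.012) and -0.35 for AXL (SE 0.062, adjusted p = 0.00204). For AMOTL2, TEAD1 and YAP1 it was -0.24, -0.24 and -0.23. All 6 were lower with OHT in siRAD21 cells, relative to siCtrl cells. For CTGF it was 0.04 at 24 h and 0.01 at 48 h (SE 0.072 and 0.066, adjusted p = 0.981 and 0.955).

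Both treatments together, siRAD21 OHT against siCtrl cells, gave 2 called genes of 10 at 24 h, against 13.1% of all genes tested, and 2 of 10 at 48 h, against 28.0%. These comparisons share the siCtrl libraries with those above. WWTR1 fell by 0.82 at 24 h (SE 0.109, limma adjusted p = 5.07e-05) and by 1.67 at 48 h (SE 0.099, adjusted p = 5.08e-09), from a mean of 13.4 to 3.88 eRPKM, which is 3.18-fold lower on the log2(eRPKM + 0.5) scale of the fit. AXL fell by 1.24 at 48 h (SE 0.044, adjusted p = 3.61e-11), from 78.3 ± 1.21 to 32.8 eRPKM. CTGF fell by 0.62 at 24 h (adjusted p = 5.98e-07) and had -0.25 at 48 h. YAP1 and AMOTL1 were both at 0.49 at 24 h, just short of a call, and at 0.16 and 0.35 at 48 h. At 24 h leaving out siCtrl replicate 2 or siRAD21 OHT replicate 2 added YAP1, AMOTL1 and CYR61 to the calls. TEAD1 overlapped with the siCtrl libraries at both times (0.10 and 0.03).

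The 2 times were also compared in siCtrl cells. Between 24 and 48 h, CTGF and WWTR1 rose, 2 called genes of 10, against 12.4% of all genes tested. CTGF rose from 40.9 ± 2.92 (SD, n = 2) to 86.8 ± 2.47 eRPKM (n = 3), by 1.08 on the log2 scale (SE 0.047, limma adjusted p = 1.01e-08) or 2.11-fold. With duplicate removal undone the rise of CTGF was 1.29 on the log2 scale. WWTR1 rose from 8.54 ± 0.764 to 13.4 ± 0.585, by 0.62 (SE 0.099, adjusted p = 0.00021). LATS2, ANKRD1 and YAP1 were at 0.29, 0.27 and 0.18, with adjusted p under 0.05 but no call, and TEAD1 and CYR61 had libraries that overlapped. Nothing in the labels says whether the 2 times were processed together, so time and any batch cannot be told apart.

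The siRAD21 difference itself changed with time in 1 of 10 genes, against 10.7% of all genes tested. That gene was LATS2, for which the log2 fold change at 48 h was above that at 24 h by 0.52 (SE 0.113, limma adjusted p = 0.00457). The value was below 0.5 without siCtrl 24 h replicate 2, siCtrl 48 h replicate 3 or siRAD21 48 h replicate 2, the lowest being 0.46, and it was 0.46 with the replicate number as a block, so that the call was lost there too. WWTR1 (-0.46, adjusted p = 0.0387), AXL (-0.44) and AMOTL2 (0.18, adjusted p = 0.0483) had an adjusted p under 0.05 with no call, and in all 3236 of 14993 genes tested reached that adjusted p. WWTR1 was called without siCtrl 24 h replicate 2 or siRAD21 48 h replicate 1 (-0.55 and -0.54). AXL was called, at -0.51, with duplicate removal undone. YAP1 differed by -0.05 between the times, with an SE of 0.074. All these values use the siRAD21 libraries at 24 h, which were close to the sampling noise, so their p-values may be too small.

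The rest of the pathway was described from 3 lists. The first held 26 Hippo kinases, adaptors and upstream regulators, of which 24 were tested. In siRAD21 against siCtrl cells at 48 h, 3 of these 24 rose and 2 fell, beside 1883 and 1676 of all genes tested, with a median log2 fold change of 0.12. FAT4, an atypical cadherin, rose from a mean of 4.71 to 13.7 eRPKM (log2 fold change 1.45, limma adjusted p = 2.95e-08). WWC1, the scaffold KIBRA, rose by 0.85 and SAV1, the partner of the upstream kinases, by 0.61. STK3, the kinase MST2, fell from 11.7 to 6.32 eRPKM, by 0.84 (adjusted p = 3.73e-07), and NF2, or merlin, fell from 70.0 to 43.7, by 0.67. With OHT in siCtrl cells at 48 h, 1 of the 24 rose (WWC1, by 0.89) and 3 fell, beside calls for 17.9% of all genes tested (1166 higher and 1518 lower). DCHS1, the ligand of FAT4, fell by 0.94, FAT4 by 0.70 and PTPN14, a phosphatase that binds YAP, by 0.63. In siRAD21 cells at 48 h OHT gave 1 higher and 6 lower calls of the 24, with a median of -0.30, beside calls for 28.6% of all genes tested.

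The second list held the other TEAD factors and the Vestigial-like cofactors, which compete with YAP and TAZ for TEAD. Of its 7 genes 6 were tested, and VGLL1 was listed at 0 in every library. VGLL3 rose from a mean of 8.99 in siCtrl to 31.7 eRPKM in siRAD21 cells at 48 h (log2 fold change 1.77, limma adjusted p = 9.98e-09) and VGLL4 from 12.4 to 19.3 (0.62), while VGLL2 fell by 1.06, from 3.59 to 1.44. These were 3 of 6, where 23.7% of all genes tested were called, and the median of the 6 was 0.29. TEAD2, TEAD3 and TEAD4 were not called, although TEAD3, with a log2 fold change of 0.47 (SE 0.063, adjusted p = 1.98e-05), was within 1 SE of TEAD1. OHT in siCtrl cells at 48 h gave 1 higher call, TEAD4 from 28.2 to 43.7 (0.62, adjusted p = 2.71e-08), and 3 lower calls, TEAD2 (-0.67), VGLL4 (-0.51) and VGLL2 (-0.51), 4 of 6 where 17.9% of all genes tested were called. The median of the 6 there was -0.39, with TEAD1 at -0.24.

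The third list held 16 other genes of a YAP/TAZ target signature, 14 of them tested. At 48 h 6 of the 14 rose and 2 fell in siRAD21 against siCtrl cells, with a median of 0.37, where 23.7% of all genes tested were called. MYOF, a membrane repair protein, rose from 11.7 to 31.5 eRPKM (1.4, limma adjusted p = 1.05e-09), and DOCK5 and CCDC80 rose by 1.13 and 1.06. TGFB2 fell from 18.9 to 8.85 eRPKM, by 1.05 (adjusted p = 8.6e-10), and F3, tissue factor, fell by 0.75. The calls in this list were thus in both directions. With OHT in siCtrl cells at 48 h 3 of the 14 fell and none rose, where 17.9% of all genes tested were called, CCDC80 by 1.12, RBMS3 by 0.75 and PTPN14, which is in 2 of the lists, by 0.63. In siRAD21 cells at 48 h OHT gave 8 lower calls of 14 and no higher call, with a median of -0.70, beside 2428 lower and 1853 higher calls over all genes tested. The lists were written with results of these data known, so their counts are a description.

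Over the 8 group means, on the log2(eRPKM + 0.5) scale, likeness between genes is given as a description, with no test, over points that are means of the same libraries for every gene. YAP1 was most like AMOTL1 (Pearson r = 0.97, n = 8 group means), and AMOTL1 like AMOTL2 (r = 0.90), whereas YAP1 and WWTR1 had r = -0.52. CTGF was like ANKRD1 (r = 0.87), and both were high at 48 h. AXL had r = 0.67 with WWTR1 and -0.71 with ANKRD1. Among all 2648 tested genes with a mean of at least 5 eRPKM and group means that span at least 1 log2 unit, those most like WWTR1 were CRISPLD1 (r = 0.98), PRICKLE1 (0.978) and OTUB2 (0.972). For CTGF they were CLIP4 (0.99), MUT (0.989) and ELK3 (0.981), and for AXL they were LASP1 (0.998), SAMD11 (0.984) and AIDA (0.984). LASP1, an actin-binding protein of focal adhesions, followed AXL from 69.2 eRPKM in siCtrl to 45.3 in siRAD21 and 31.1 in siRAD21 OHT cells at 48 h. CRISPLD1 went from 13.3 in siCtrl to 3.53 in siRAD21 and 2.22 in siRAD21 OHT cells at 48 h. The other 7 of the 10 genes spanned less than 1 log2 unit over the groups and were not searched.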

How the data were processed

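The deposited table gives eRPKM, an RPKM over exons. The authors removed ribosomal RNA, made libraries that do not mark strand, trimmed reads, aligned them to hg19 with TopHat2 2.0.8, removed PCR duplicates and computed eRPKM. Their notes also name featureCounts 1.4.5 and SAMtools. The authors called differential expression with DESeq2. Here limma 3.58.1 (R 4.3.3) was fitted to log2(eRPKM + 0.5), with 8 group means and a mean-variance trend, over 14993 genes with a mean of at least 1 eRPKM, and p-values were adjusted by Benjamini-Hochberg within each of 14 comparisons. Calls needed an adjusted p under 0.05 and a log2 fold change beyond 0.5, as in the study. Fold changes on this scale understate those of low genes.

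Values were whole multiples of 1 read. Reads of 22033 of 22040 genes above 0 and the read totals used for scaling, 9647501 to 12678599, could therefore be recovered. At most 0.01 lay between a value and a whole number. Replicate numbers paired the siCtrl and siCtrl OHT libraries at 48 h, where deviations from the group means correlated across genes by 0.258, 0.130 and 0.157, but not all other groups. The script was tested on simulated data. Positions are from a GENCODE annotation of GRCh37 and promoters from RefSeq.

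The 10 genes, the gene lists and the marker lists were chosen with earlier results of these data known. The leukocyte markers are not reported here. The text names the 10 genes, RAD21, MYC, the called genes of each list with the largest changes (at most 5) in siRAD21 and in OHT in siCtrl cells at 48 h, and, for each of the 10 that spans at least 1 log2 unit, the 3 most similar genes. Alternatives were another pseudocount, filter, scaling, block on the replicate number, averaging of the pair within sampling noise and leaving out each library, and, chosen after seeing the data, duplicate removal undone, limma-voom on recovered reads and a crossed block.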

Additional observations from a re-analysis of the deposited data

Results flagged for a closer look

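All flagged values are differences between 2 log2 fold changes with a limma adjusted p under 0.05 (Benjamini-Hochberg over all genes tested). Groups held at most 3 libraries, so no single library was tested as an outlier. At 48 h the log2 fold change of OHT in siRAD21 cells was below that in siCtrl cells for 6 of the 10 genes, by -0.372 for LATS2, -0.358 for AMOTL1, -0.345 for AXL, -0.24 for AMOTL2, -0.235 for TEAD1 and -0.232 for YAP1, beside 2587 of all 14993 genes tested. All 6 were under 0.5 in size, and at 24 h none of the 10 passed. The p-values of these 6 count the 2 siRAD21 OHT libraries at 48 h as 2 samples, although they differed by less than the sampling noise. The log2 fold change of siRAD21 without OHT differed between 48 and 24 h for 4 of the 10, beside 3236 of all 14993 genes tested. The difference was 0.523 for LATS2 and 0.184 for AMOTL2, whose log2 fold changes were higher at 48 h. It was -0.46 for WWTR1 and -0.436 for AXL, whose log2 fold changes were lower at 48 h. From 24 to 48 h the mean of WWTR1 went from 4.91 to 5.57 eRPKM in siRAD21 and from 8.54 to 13.4 in siCtrl cells. That of AXL went from 69.8 to 47.9 and from 84.1 to 78.3. The p-values of these 4 count the siRAD21 libraries at 24 h, which were close to the sampling noise, as 2 samples. What these differences rest on was not tested.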

How the results depend on the processing

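Of 80 pairs of a gene and a comparison with a limma adjusted p under 0.05, 23 were called. Over 32 other settings, 2515 of 2560 values kept their direction and their call, 16 lost it, 29 gained it and none reversed. The number of the 10 genes called changed by over 1.5 times as follows. For OHT in siCtrl cells at 24 h (1 called) it was 2 with limma-voom, and at 48 h (1 called) 0 with quantile normalization. For OHT in siRAD21 cells at 48 h (2 called) it was 1 with a pseudocount of 1, 1 with median centring and 4 with quantile normalization. For siRAD21 OHT against siCtrl at 24 h (2 called) it was 4 with median centring, 4 with quantile normalization and 6 with duplicate removal undone. For the siRAD21 difference at 48 h minus that at 24 h (1 called, LATS2) it was 2 with quantile normalization, 2 with duplicate removal undone, and 0 with the replicate number as a block or with the siCtrl 24 h numbers crossed in that block, where LATS2 was at 0.461. The block changed no other count of the 10 genes. Groups with 3 pairs were siCtrl and siCtrl OHT at 48 h, where each correlated above 0.1, and of the 2-pair comparisons siCtrl OHT and siRAD21 at 48 h did so (0.168 and 0.111).

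Leaving out each library in turn gave 3 to 5 called genes for siRAD21 at 48 h, 1 to 2 for OHT in siCtrl at 24 h, 0 to 1 at 48 h, 1 to 2 for OHT in siRAD21 at 48 h, 1 to 2 for siRAD21 with OHT at 24 h, 2 to 5 for siRAD21 OHT against siCtrl at 24 h and 0 to 2 for the difference between the times. A group left with 1 library was assumed to vary like the others. All genes called for the interaction at 24 h numbered 0, and 5 with no filter, 12 with quantile normalization, 4 with the block, 10 with the crossed block, 19 with limma-voom and 1 without siCtrl OHT 48 h replicate 3. A minimum mean of 5 eRPKM, with 10906 genes tested, left between 610 and 2794 calls in the 10 comparisons of cell groups at 1 time, against 970 to 4281, 720 against 1094 for the interaction at 48 h and 1152 against 1865 between the times in siCtrl cells. Scaling moved the split of all calls. Median centring gave 1139 higher and 658 lower calls between the times in siCtrl cells, against 829 and 1036. Quantile normalization gave 680 and 546 for siRAD21 at 24 h, against 874 and 390, and 814 and 860 for OHT in siRAD21 cells at 24 h, against 643 and 1142. With 2 libraries in most groups, and p-values that measure only their spread, sizes near 0.5 on the log2 scale could not be placed on either side of the threshold.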
